A study of Arabidopsis thaliana with 6 samples.

Results

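The NIN-LIKE PROTEIN (NLP) family of Arabidopsis thaliana is described here in whole seedlings grown on ammonium nitrate or on glutamate. The members were chosen by locus code, as NLP1 to NLP9 in order, and all 9 were found among the 33602 genes of the deposited table. Seedlings of the Columbia ecotype, with no mutation or transgene named in the labels, grew for 12 days on agar with half-strength Murashige and Skoog salts lacking nitrogen and 0.5% sucrose. The control plates received 5 mM ammonium nitrate and the others 5 mM glutamate, with 3 RNA libraries per nitrogen source. Ammonium nitrate carries 2 nitrogen atoms per molecule, so the control plates held 10 mM nitrogen. The nitrogen source, its amount and the lack of nitrate and of ammonium therefore cannot be told apart. Nothing in the labels ties the libraries to separate cultures, so the spread behind each p-value may be technical.

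NLP proteins are plant transcription factors that switch on the primary nitrate response. They carry an RWP-RK domain, which binds DNA, and a PB1 domain at the carboxyl end, through which they pair with each other and with other proteins. NLP7 binds nitrate and acts as a nitrate sensor. Nitrate leads to its phosphorylation by calcium-dependent protein kinases and to its retention in the nucleus. Since that control acts on the protein, transcript levels do not measure NLP activity.

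The 9 genes lie on chromosomes 1 to 4 of the TAIR10.1 assembly, the RefSeq release of the TAIR10 build named by the submitters. NLP4 (AT1G20640, chr1:7154410-7158287), NLP5 (AT1G76350, chr1:28639453-28643086) and NLP6 (AT1G64530, chr1:23959627-23963083) are on the plus strand of chromosome 1. NLP8 (AT2G43500, chr2:18061716-18066708) is on the plus strand and NLP1 (AT2G17150, chr2:7466687-7471586) on the minus strand of chromosome 2. NLP9 (AT3G59580, chr3:22009008-22012804) is on the plus strand of chromosome 3. On chromosome 4, NLP7 (AT4G24020, chr4:12479528-12484049) and NLP3 (AT4G38340, chr4:17954710-17958063) are on the plus strand and NLP2 (AT4G35270, chr4:16777264-16782054) on the minus strand. The coding sequences run from 2304 bases in NLP3 to 2892 bases in NLP2, and no member had reads that map to several places.

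The stretch of coding sequence around the RWP-RK motif, which gives the family its name, is shown for all 9 genes to let the members be compared where the DNA-binding domain is encoded. Capitals mark the 18 bases that encode the motif, with 21 bases on either side, 5′ to 3′ on the coding strand, from RefSeq TAIR10.1.
NLP1: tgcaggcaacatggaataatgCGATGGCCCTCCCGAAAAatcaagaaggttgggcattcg
NLP2: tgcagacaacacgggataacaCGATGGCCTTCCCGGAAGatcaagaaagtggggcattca
NLP3: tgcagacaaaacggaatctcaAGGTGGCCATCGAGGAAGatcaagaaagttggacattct
NLP4: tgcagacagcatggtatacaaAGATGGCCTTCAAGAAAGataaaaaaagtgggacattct
NLP5: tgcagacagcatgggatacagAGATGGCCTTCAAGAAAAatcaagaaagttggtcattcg
NLP6: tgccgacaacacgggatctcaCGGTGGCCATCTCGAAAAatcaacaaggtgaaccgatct
NLP7: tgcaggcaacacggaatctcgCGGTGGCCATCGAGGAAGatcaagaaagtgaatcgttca
NLP8: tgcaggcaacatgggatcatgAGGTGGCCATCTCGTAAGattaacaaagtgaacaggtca
NLP9: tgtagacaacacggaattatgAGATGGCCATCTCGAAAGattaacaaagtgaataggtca
Over these 60 bases NLP4 and NLP5 differed at 8 positions, NLP8 and NLP9 at 8, NLP1 and NLP2 at 11, and NLP6 and NLP7 at 13. This stretch alone does not set all 4 pairs apart: NLP3 and NLP7 differed at 10 positions, and 7 pairs outside the 4 differed at 13 or fewer. Over the aligned coding sequence the identity was 80.5% for NLP1 and NLP2, 80.4% for NLP4 and NLP5, 79.8% for NLP8 and NLP9 and 69.5% for NLP6 and NLP7. The other 32 pairs had 53.8% to 63.0% identity. NLP3 had no such close relative, and its nearest was NLP1 at 61.3%.

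The libraries held 49520259 to 63424601 reads on genes, as worked out from the RPKM steps, where mates of a fragment may each be counted. Members had 66 to 6185 reads per library. Levels in RPKM take account of gene length and library size and can be compared between genes of different length. The label of whole seedlings was checked with marker genes of shoot and root, which were all above the filter, whereas the 4 seed marker genes had at most 4 reads in any library. Of 6 root markers 5 rose and 1 fell on glutamate, and their summed level was 50.4 to 67.5 RPKM on ammonium nitrate and 87.6 to 97.1 RPKM on glutamate. Of 5 shoot markers 4 fell and 1 rose, and their summed level was 25141 to 26849 RPKM on ammonium nitrate and 10918 to 12470 RPKM on glutamate. Such calls were common, as 35.0% of all tested genes were called higher on glutamate and 36.8% lower. In RNA of whole seedlings a change in the share of cells of a type and a change in RNA per cell cannot be told apart, and the part of these markers in the results below was not tested.

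The study set out to find genes regulated by glutamate. Of the 9 NLP genes, 8 rose on glutamate and none fell, and NLP1 did not pass the test. NLP3 and NLP9 reached the filter of a mean of 1 RPKM only through their glutamate libraries. For both, the filter favoured a rise. The rises ran from 1.23-fold in NLP7, the best known nitrate sensor of the family, to 5.77-fold in NLP8, known for nitrate-promoted seed germination. Of all 20032 tested genes, 35.0% were called higher and 36.8% lower. In 8 of the 9 members every glutamate library was above every ammonium nitrate library, as in 36.9% of tested genes, while 39.2% of tested genes had every glutamate library below. An increase of at least 1 on the log2 scale was called in 5 of 9 members and in 9.52% of tested genes. The median log2 fold change was 1.09 over the 9 members and -0.02 over all tested genes. These sizes depend on the pseudocount. With 5 RPKM the median over the members was 0.41 and 3 of 9 reached 1, against -0.01 and 5.20% of all tested genes. With 0.1 RPKM the median was 1.44 and 6 of 9 reached 1, against -0.02 and 11.3% of all tested genes. Log2 fold changes were computed on log2(RPKM + 1) and so are smaller than the true change where levels are low. A plain fold is the mean RPKM on glutamate over that on ammonium nitrate. Each adjusted p comes from the limma fit, corrected by Benjamini-Hochberg over every tested gene, with a threshold of 0.05.

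**Figure D1:**
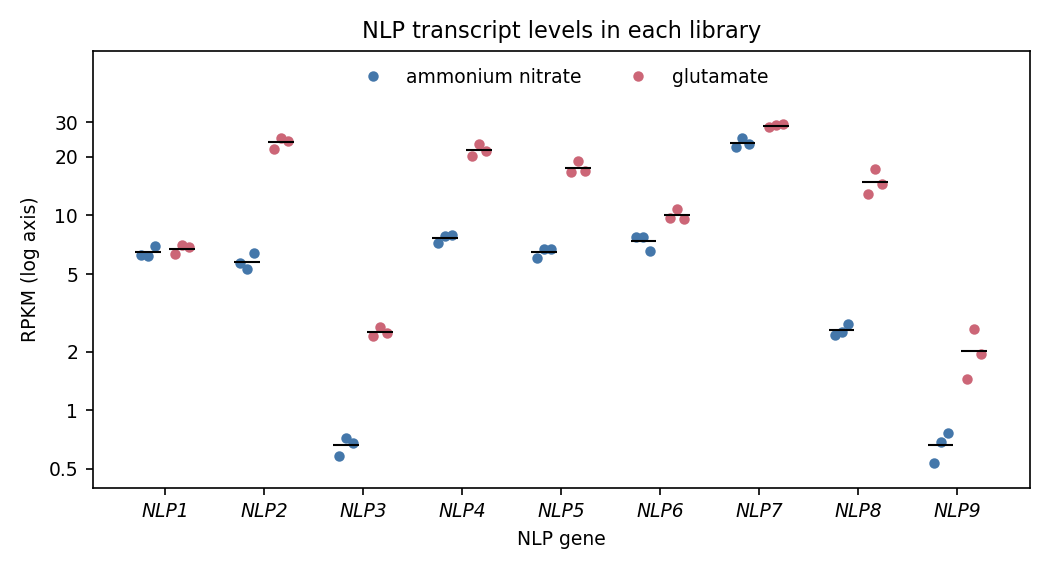
Transcript level of each NLP gene in RPKM on a log axis. Each point is 1 library, blue for ammonium nitrate and red for glutamate, and bars are means of 3 libraries. The groups overlap for NLP1, at 6.21 to 6.95 RPKM on ammonium nitrate and 6.31 to 7.08 RPKM on glutamate.

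NLP7 had the highest level of the family on both nitrogen sources and changed least among the members that passed. Its level was 22.3, 25.1 and 23.3 RPKM in ammonium nitrate replicates 1, 2 and 3 and 28.4, 29.1 and 29.3 RPKM in glutamate replicates 1, 2 and 3. The lowest glutamate library was thus above the highest ammonium nitrate library, by a small margin. The log2 fold change was 0.29 ± 0.05 (SE, n = 3 per group, adjusted p = 0.00157 in limma), and 29.2% of tested genes had a larger one.

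NLP6, the closest relative of NLP7 and known to overlap with it in function, was at 7.73, 7.77 and 6.59 RPKM on ammonium nitrate and at 9.66, 10.8 and 9.60 RPKM on glutamate. All glutamate libraries were higher. The ratio of means was 1.36-fold and the log2 fold change 0.40 ± 0.08 (SE, adjusted p = 0.0021 in limma).

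NLP8 had the largest change of the family, as a plain fold and on log2(RPKM + 1); with a pseudocount of 5 RPKM it was 1.39, next to 1.41 for NLP2. It was at 2.44, 2.53 and 2.78 RPKM on ammonium nitrate and at 12.9, 17.3 and 14.5 RPKM on glutamate. The ammonium nitrate libraries lay close together, and glutamate replicate 2 was the highest of all. The log2 fold change was 2.14 ± 0.10 (SE, adjusted p = 8.0e-07 in limma), and 2.38% of tested genes had a larger one.

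NLP9, the close relative of NLP8, had one of the lowest levels of the family. It was at 0.535, 0.685 and 0.767 RPKM on ammonium nitrate, from 78, 96 and 113 reads. On glutamate it was at 1.45, 2.62 and 1.94 RPKM, from 265, 405 and 380 reads. The glutamate libraries were all higher but differed among themselves by more than those of any other member relative to their mean. The ratio of means was 3.03-fold and the log2 fold change 0.84 ± 0.15 (SE, adjusted p = 0.00108 in limma).

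NLP2, known to act beside NLP7 in growth on nitrate, was at 5.68, 5.29 and 6.41 RPKM on ammonium nitrate. On glutamate it was at 22.0, 25.1 and 24.2 RPKM. Its lowest glutamate library was above 20 RPKM and its highest ammonium nitrate library below 7 RPKM. The ratio of means was 4.10-fold, and on the log2 scale the rise was 1.87 ± 0.08 (SE, adjusted p = 4.4e-07 in limma).

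NLP1, its close relative, started at nearly the same level and did not pass. It was at 6.301, 6.21 and 6.95 RPKM on ammonium nitrate and at 6.31, 7.08 and 6.85 RPKM on glutamate, and the groups overlapped. Its log2 fold change was 0.05 ± 0.07 (SE, adjusted p = 0.543 in limma), with a 95% confidence interval of -0.11 to 0.21.

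NLP4 and NLP5, a close pair, rose by similar amounts. NLP4 was at 7.25, 7.87 and 7.95 RPKM on ammonium nitrate and at 20.2, 23.4 and 21.4 RPKM on glutamate, a 2.82-fold rise. NLP5 was at 6.05, 6.73 and 6.74 RPKM on ammonium nitrate and at 16.8, 19.0 and 16.8 RPKM on glutamate, a 2.70-fold rise. In both genes the groups were far apart against their spread. The log2 fold changes were 1.38 ± 0.07 for NLP4 (SE, adjusted p = 8.8e-07 in limma) and 1.305 ± 0.07 for NLP5 (SE, adjusted p = 1.5e-06 in limma).

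NLP3 was at 0.584, 0.719 and 0.676 RPKM on ammonium nitrate, from 66, 78 and 77 reads. On glutamate it was at 2.42, 2.69 and 2.48 RPKM, from 342, 322 and 376 reads. It was the lowest member on ammonium nitrate together with NLP9, and its libraries lay close together within each group. The ratio of means was 3.83-fold, and the log2 fold change of 1.09 ± 0.09 (SE, adjusted p = 1.1e-05 in limma) is smaller than that ratio because of the pseudocount of 1 RPKM.

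**Figure D2:**
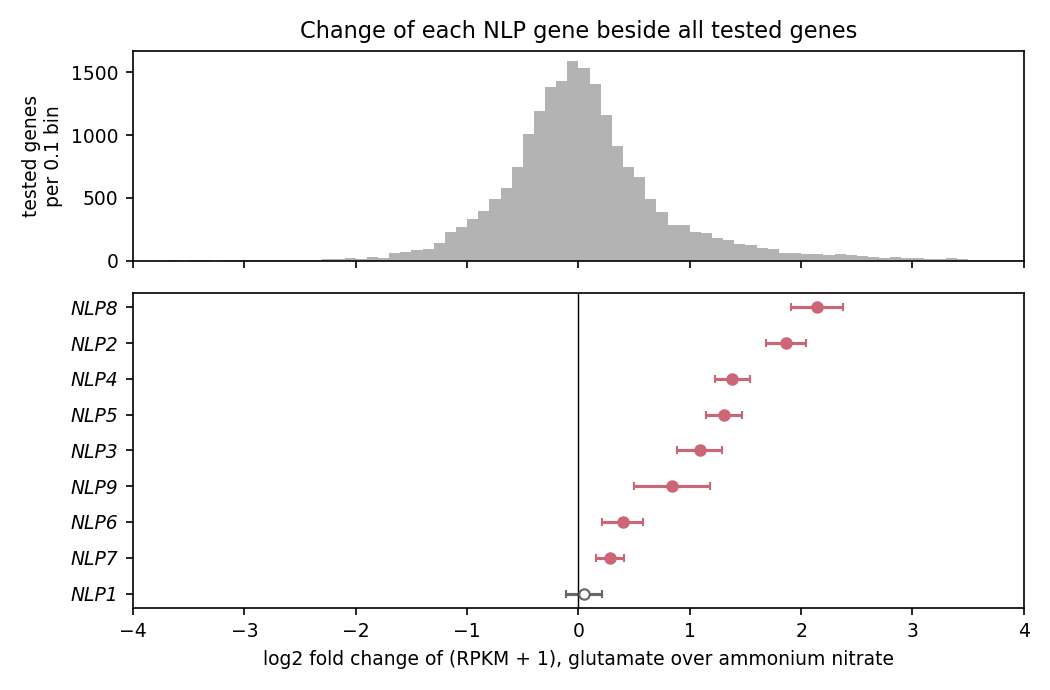
Upper panel, number of tested genes per 0.1 bin of log2 fold change, with 74 genes beyond -4 or 4 not drawn. Lower panel, log2 fold change of each NLP gene with its 95% confidence interval from limma; filled points passed at an adjusted p of 0.05 and the open point, NLP1, did not. The members lie between 0.05 (NLP1) and 2.14 (NLP8).

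The libraries of a group were not alike for the family. Glutamate replicate 2 was the highest of the 3 glutamate libraries for 8 of 9 members, all except NLP7, and it was highest for 32.6% of all tested genes. Glutamate replicate 1 was the lowest for 8 of 9 members and for 33.8% of tested genes. Among the ammonium nitrate libraries replicate 3 was the highest for 6 members and for 33.6% of tested genes. Ammonium nitrate replicate 1 was the highest for no member and for 34.7% of tested genes. Without glutamate replicate 2 the log2 fold change was 2.04 for NLP8 and 0.70 for NLP9, and the same number of members, 8, passed without any single library.

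Because the members rose by unequal amounts, the order of their levels differed between the nitrogen sources. On ammonium nitrate NLP7 was followed by NLP4, NLP6, NLP5, NLP1 and NLP2, with means from 7.69 down to 5.79 RPKM. Neighbours in the order among these 5 genes overlapped over the 3 libraries. NLP8 at 2.58 RPKM stood below them, and NLP9 and NLP3, both with means near 0.66 RPKM, overlapped. On glutamate the order was NLP7, NLP2, NLP4, NLP5, NLP8, NLP6, NLP1, NLP3 and NLP9. There the ranges of NLP2 and NLP4 overlapped, as did those of NLP5 and NLP8 and those of NLP3 and NLP9, although the first of each of these pairs was higher in all 3 libraries. NLP2 was sixth on ammonium nitrate and second on glutamate.

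The summed level of the 9 genes was 58.9, 62.9 and 62.2 RPKM on ammonium nitrate and 120.2, 137.1 and 127.1 RPKM on glutamate. The ratio of means was 2.09-fold for the 9 genes and 2.63-fold for the 8 without NLP7. The share of NLP7 in the sum was 38.4% ± 1.26 on ammonium nitrate and fell short of that in each glutamate library, at 22.6% ± 1.26 (SD, n = 3). The share of NLP1 was 10.6% ± 0.66 and 5.27% ± 0.11, whereas that of NLP2 was 9.45% ± 0.96 and 18.5% ± 0.41. NLP8 accounted for 4.21% ± 0.23 and 11.6% ± 0.95. These sums and shares are given as a description with no test.

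**Figure D3:**
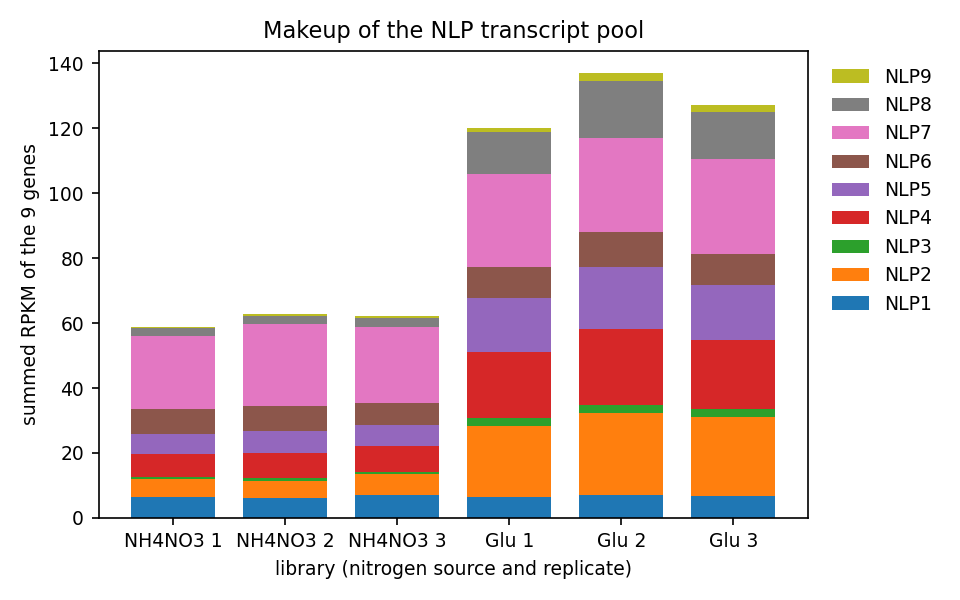
Summed RPKM of the 9 NLP genes in each library, ammonium nitrate (NH4NO3) on the left and glutamate (Glu) on the right, with the part of each gene in colour. The sums are 58.9 to 62.9 RPKM on ammonium nitrate and 120.2 to 137.1 RPKM on glutamate, and the parts of NLP2, NLP4, NLP5 and NLP8 are taller on glutamate.

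The balance within each of the 4 close pairs was compared as the ratio of RPKM within a library. NLP2 was at 0.852 to 0.923 times the level of NLP1 on ammonium nitrate and at 3.48 to 3.54 times on glutamate, so that the pair went from near equal levels to an excess of NLP2. The log2 ratio differed by 1.98 between the nitrogen sources (exact permutation test, two-sided p = 0.1, adjusted p = 0.133 over 4 pairs). A p of 0.1 is the smallest that 3 libraries against 3 allow, so none of these tests could pass 0.05. NLP9 was at 0.219 to 0.276 times the level of NLP8 on ammonium nitrate and at 0.112 to 0.151 times on glutamate, a difference of -0.95 in the log2 ratio (exact permutation p = 0.1, adjusted p = 0.133). In both pairs the 2 groups of libraries did not overlap.

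The other pairs kept closer ratios. NLP5 was at 0.835 to 0.855 times the level of NLP4 on ammonium nitrate and at 0.785 to 0.830 times on glutamate, a difference of -0.06 in the log2 ratio (exact permutation p = 0.1, adjusted p = 0.133). The groups did not overlap, but the difference was small. NLP7 was at 2.89 to 3.54 times the level of NLP6 on ammonium nitrate and at 2.70 to 3.05 times on glutamate, and these ranges overlapped. That difference was -0.15 in the log2 ratio (exact permutation p = 0.3, adjusted p = 0.3).

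**Figure D4:**
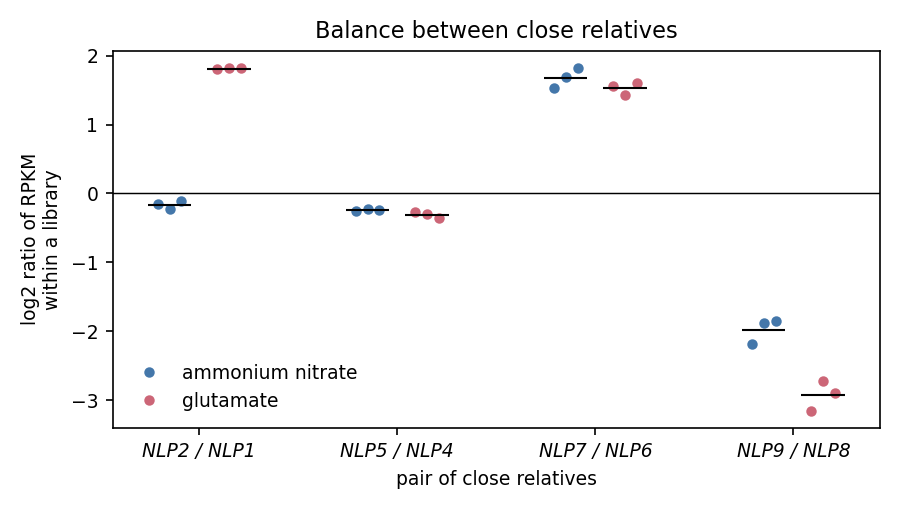
Log2 ratio of RPKM within each library for the 4 pairs of close relatives, blue for ammonium nitrate and red for glutamate, with bars at the means. The ratio of NLP2 to NLP1 has means of -0.17 and 1.81, and that of NLP5 to NLP4 of -0.24 and -0.31.

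The upstream sequences of NLP1 and NLP2 are shown because these close relatives responded differently, and that of NLP8 because it rose most. Each line gives the 250 bases before the annotated gene start, 5′ to 3′ on the gene's strand, from RefSeq TAIR10.1, with capitals where GAATC occurs on either strand. This motif is bound by the NIGT1 repressors, which nitrate induces through NLP proteins.
NLP1, chr2:7471587-7471836, minus strand: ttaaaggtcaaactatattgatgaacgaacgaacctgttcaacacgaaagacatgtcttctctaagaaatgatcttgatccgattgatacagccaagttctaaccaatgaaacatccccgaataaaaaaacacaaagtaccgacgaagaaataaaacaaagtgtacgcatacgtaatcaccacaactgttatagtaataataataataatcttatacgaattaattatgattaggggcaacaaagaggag
NLP2, chr4:16782055-16782304, minus strand: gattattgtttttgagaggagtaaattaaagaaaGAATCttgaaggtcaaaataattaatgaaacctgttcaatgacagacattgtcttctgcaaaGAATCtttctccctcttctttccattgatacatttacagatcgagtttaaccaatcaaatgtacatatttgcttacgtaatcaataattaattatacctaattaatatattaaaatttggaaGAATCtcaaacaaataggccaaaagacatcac
NLP8, chr2:18061466-18061715, plus strand: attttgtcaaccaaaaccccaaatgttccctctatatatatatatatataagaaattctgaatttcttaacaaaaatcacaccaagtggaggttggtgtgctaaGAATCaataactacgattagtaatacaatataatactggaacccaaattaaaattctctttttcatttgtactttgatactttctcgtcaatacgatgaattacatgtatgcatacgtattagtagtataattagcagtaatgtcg
GAATC, searched on both strands, was found 0 times in the window of NLP1, 3 times in that of NLP2 and 1 time in that of NLP8. The window of NLP3 held 3 matches, that of NLP7 held 2, and those of NLP5 and NLP6 held 1 each. NLP4 and NLP9, which also rose, had 0. GAATC was thus found in 6 of the 9 NLP windows, all except those of NLP1, NLP4 and NLP9, and in 38.8% of the windows of 27443 protein-coding genes. Whether the motif bears on the changes was not tested. The core of the nitrate-responsive element, CTTNNNNNNNNNNAAG, which is its own reverse complement, was found in 1 of 9 NLP windows, that of NLP9, and in 8.02% of all windows. Among the windows of the 26 target genes listed below, 18 held GAATC and 1 held the core. A match describes the letters of a window and does not show binding. The search covered only these 250 bases and the exact motifs, so elements elsewhere or with another spacing would be missed.

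Annotated neighbours overlap 3 members on the opposite strand, and the sources used here do not say whether strand was used in counting. NLP4 shares 462 bases with AT1G20650, which fell from 14.7 ± 0.70 to 9.06 ± 0.36 RPKM (SD, n = 3) while NLP4 rose. NLP1 shares 212 bases with AT2G17140, at 1.44 ± 0.30 and 0.973 ± 0.05 RPKM. NLP5 shares 49 bases with AT1G76360, at 12.8 ± 1.38 and 15.1 ± 0.90 RPKM, and 700 bases with the non-coding gene AT1G09617. That non-coding gene had no row under its code in the deposited table, so its level could not be given.

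The other RWP-RK proteins of Arabidopsis are RKD1 to RKD5, which lack the PB1 domain and are known for roles in egg cells and embryos. None reached the filter of a mean of 1 RPKM. RKD1, RKD2 and RKD4 had 0 reads in all 6 libraries, and a count of 0 allows up to 3 reads per library, for counting error only. RKD3 had 2 reads, in ammonium nitrate replicate 3. RKD5 had 30, 25 and 45 reads on ammonium nitrate and 72, 68 and 76 reads on glutamate, at 0.620 ± 0.18 and 1.09 ± 0.08 RPKM (SD, n = 3).

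Proteins that bind or modify NLP proteins, or act beside them, were called higher in 3 of 11 genes and lower in 3, and 5 did not pass. Neither count exceeded the share of all tested genes, 35.0% higher and 36.8% lower, so they are not a result about the list. The median log2 fold change was -0.05 over the list and 0.06 with equal totals per library. The kinase gene CPK10 rose from 14.4 ± 0.72 to 29.2 ± 0.70 RPKM (2.03-fold) and CPK30 from 14.8 ± 0.93 to 19.2 ± 0.60 RPKM (1.297-fold). CPK32, at 21.3 ± 0.26 and 20.6 ± 1.26 RPKM, missed the threshold (adjusted p = 0.446 in limma), with a 95% confidence interval of -0.18 to 0.08 for its log2 fold change. These 3 genes encode the calcium-dependent kinases that phosphorylate NLP7 in response to nitrate.

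CIPK8, a calcineurin B-like interacting kinase of the nitrate response, rose from 28.6 ± 1.05 to 37.4 ± 1.53 RPKM, whereas CIPK23, which phosphorylates the nitrate transporter and sensor NPF6.3, fell from 62.3 ± 0.96 to 47.6 ± 2.05 RPKM. NRG2, a protein that binds NLP7, fell from 61.5 ± 5.05 to 39.0 ± 1.55 RPKM, and NPF6.3 had the largest fall of the list, -1.66 ± 0.04 on the log2 scale (SE, adjusted p = 5.5e-08 in limma). TCP20, a transcription factor that binds NLP6 and NLP7, was at 9.44 ± 0.29 and 10.5 ± 0.89 RPKM (adjusted p = 0.12 in limma). KIN10 and KIN11 encode the catalytic subunits of the energy-sensing kinase SnRK1. KIN10 was at 22.7 ± 0.74 and 23.1 ± 0.64 RPKM (adjusted p = 0.68 in limma) and KIN11 at 18.5 ± 0.90 and 17.4 ± 0.41 RPKM (adjusted p = 0.206 in limma). CPSF30, a subunit of the polyadenylation complex, was at 9.31 ± 0.65 and 8.46 ± 0.02 RPKM (adjusted p = 0.116 in limma). With equal totals per library TCP20 and KIN10 passed as higher (adjusted p = 0.0179 and 0.0407 in limma), which made 5 of 11 genes higher. With that scaling 42.2% of all tested genes were called higher and 29.9% lower.

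The target genes of NLP proteins and other nitrate-induced genes went mostly the opposite way to the NLP genes. Of 26 listed genes 25 were tested, of which 20 fell and 3 rose, where 36.8% of all tested genes were called lower and 35.0% higher. NRT2.1 and ANR1 among the rises, and HHO1 and CYP707A2 among the falls, reached the filter only through their higher group. Their direction was thus favoured by the filter, and they are part of the counts given here. The median over the 25 was -1.54 on the log2 scale, and 2 missed the threshold. A fall of at least 1 on the log2 scale was called in 15 of the 25 and in 5.54% of all tested genes. The 8 genes with the largest changes on log2(RPKM + 1) were BT2, NIA1, BT1, NRT2.1, HRS1, NIR1, LBD39 and NIA2, with log2 fold changes of -7.11, -6.25, -4.85, 4.32, -4.26, -3.43, -3.15 and -3.09. This order depends on the pseudocount: with 0.1 RPKM NRT2.1 (5.82) came before BT1 (-5.19) and HHO1 (-5.14) entered the 8 in place of NIA2, and with 5 RPKM UPM1 entered in place of NRT2.1. NIA1, NIA2 and NIR1 encode the enzymes that reduce nitrate and nitrite, BT1 and BT2 are BTB and TAZ domain proteins, and NRT2.1 is a high-affinity nitrate transporter.

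Among the repressors that nitrate induces through NLP proteins, all 4 NIGT1 genes and all 3 LBD genes of the list fell, where 36.8% of all tested genes were called lower. Of these repressor genes HHO1 reached the filter only through its ammonium nitrate libraries, which favoured a fall. The NIGT1 gene HRS1 fell from 56.3 ± 10.8 to 1.96 ± 0.31 RPKM and HHO2 from 26.8 ± 1.05 to 6.11 ± 0.99 RPKM (SD, n = 3). HHO1 had 326, 275 and 238 reads on ammonium nitrate and 9, 0 and 0 reads on glutamate. HHO3 fell least, from 85.2 ± 3.43 to 40.2 ± 5.10 RPKM. LBD39 fell from 62.8 ± 5.84 to 6.27 ± 1.29 RPKM, LBD38 from 115.03 ± 8.35 to 24.4 ± 7.55 RPKM and LBD37 from 70.1 ± 3.54 to 19.0 ± 3.94 RPKM.

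The 3 target genes that rose were NRT2.1, its partner protein gene NRT3.1 and the MADS-box gene ANR1 of root branching, named after their values were seen. NRT3.1 rose from 33.1 ± 3.38 to 119.3 ± 7.91 RPKM and ANR1 from 0.4005 ± 0.09 to 2.44 ± 0.48 RPKM. NRT2.1 and ANR1 reached the filter only through their glutamate libraries, and HHO1 and CYP707A2 only through their ammonium nitrate libraries. For these genes the filter favoured the direction seen. NRT2.2, below the filter, had 0 reads in the ammonium nitrate libraries and 103, 54 and 54 reads on glutamate. CYP707A2, an abscisic acid hydroxylase gene known as a target of NLP8 in seeds, fell from 1.57 ± 0.43 to 0.607 ± 0.06 RPKM while NLP8 rose. HBI1, a bHLH gene known as a target of NLP6 and NLP7, fell from 39.4 ± 3.86 to 19.2 ± 1.91 RPKM. The 2 that did not pass were RFNR2, a root ferredoxin reductase gene, at 27.9 ± 2.71 and 23.6 ± 3.85 RPKM (adjusted p = 0.0863 in limma), and the ferredoxin gene FD3, at 107.9 ± 7.51 and 100.8 ± 8.09 RPKM (adjusted p = 0.253 in limma).

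**Figure D5:**
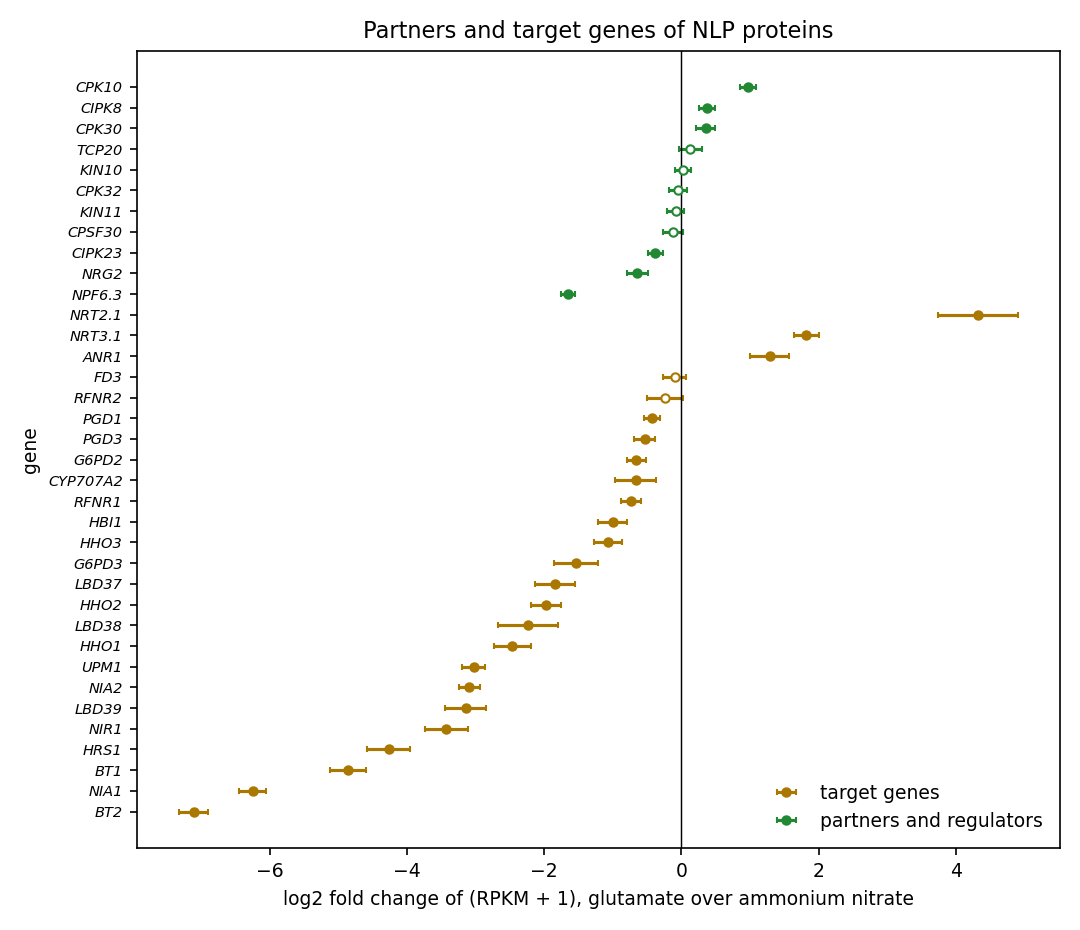
Log2 fold change of (RPKM + 1), glutamate over ammonium nitrate, with the 95% confidence interval from limma, for the 11 partners and regulators (green) and the 25 tested target genes (brown). Filled points passed at an adjusted p of 0.05. The partners lie between -1.66 and 0.97 and the target genes between -7.11 and 4.32.

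The genes whose levels ran most like those of NLP7 over the 6 libraries were AT5G14270 (BET9), AT5G49810 (MMT) and AT1G60430 (ARPC3), with a Pearson r of 0.998 for each on log2(RPKM + 1). Those most like NLP8 were AT1G80300 (NTT1), AT3G27610 and AT1G17290 (AlaAT1), with r of 0.9997, 0.9996 and 0.9995. In these 6 libraries of 2 groups such an r mostly reflects the shared difference between the groups, and 6.95% of tested genes had r above 0.95 with NLP7 and 20.5% with NLP8.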

How the data were processed

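RNA from whole seedlings was sequenced with the Illumina TruSeq RNA kit, per the labels' protocols, after 12 days in a growth room (22 °C, 16 h light, 8 h dark) that followed 2 days in the cold. The authors deposited 1 table of RPKM values, covering 33602 genes and 6 libraries, whose name states TMM scaling. The deposited fraction per gene is by its name the largest share of multiply mapped reads. The submitters' processing notes list SAMtools and the TAIR10 build. The aligner, counter and annotation that served were not given in the sources used here.

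RPKM times gene length took steps of whole reads with 0.5 read added per gene (within 0.05 read for 96.4% to 96.8% of genes under 1000 reads), which gave reads per gene and library. Limits on a count of 0 cover counting error only, whereas the 95% confidence intervals of log2 fold changes come from limma and rest on the spread between libraries. Replicates differed by more than counting noise (chi-square per degree of freedom 11.1 to 16.9).

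The 20032 genes whose mean reached 1 RPKM entered a limma fit (version 3.58.1, R 4.3.3) of log2(RPKM + 1), two-sided, with an intensity trend and Benjamini-Hochberg adjustment at 0.05. All 9 members passed this filter, but NLP3 and NLP9 only through glutamate, with ammonium nitrate means of 0.660 and 0.662 RPKM. With no filter on level 8 members were likewise called higher. The fit was also run on simulated counts with far fewer changed genes than were called here. No statement above rests on that run. Pair ratios were tested with SciPy 1.17.1 and coding sequences aligned with Biopython 1.88. The members and lists were chosen with earlier results of these data known. Named genes were all members and partners and the 8 target genes with the largest changes among those that passed with groups that did not overlap, with the 3 genes most like NLP7 (highest mean level) and NLP8 (largest change). Other target genes are named after their values were seen. Alternatives were 2 other pseudocounts, 2 other filters, equal totals per library, a replicate block, no multiply mapped genes, no trend and leaving out each library. Sequences and loci are from RefSeq TAIR10.1, whose nuclear coordinates are used by themselves, since the deposited table holds none.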

Additional observations from a re-analysis of the deposited data

How the results depend on the processing

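The count of NLP genes that rose was 8 in 13 of the 14 alternatives to the limma fit. It was 6 of the 7 members left with a mean of at least 5 RPKM, where NLP3 and NLP9 were not tested. The count that fell was 0 in each. Over the alternatives 21.8% to 42.2% of all tested genes were called higher. Each member kept its direction and its side of the threshold in every alternative that tested it, NLP1 with adjusted p-values of 0.107 to 0.852. The size depended on the pseudocount for low members, with log2 fold changes for NLP3 of 1.79 at 0.1 RPKM and 0.41 at 5 RPKM, and for NLP9 of 1.44 and 0.30. With equal totals per library 5 partners were higher in place of 3, and the median log2 fold change of all tested genes was 0.08 in place of -0.02. With no filter on level 1 RKD gene was called higher, RKD5. Leaving out single libraries gave 3 to 4 partners higher and 19 to 21 target genes lower. The 19 were of 24 tested, without ammonium nitrate replicate 2. In those fits 32.1% to 34.1% of all tested genes were called higher, and 6799 to 7169 genes lower, of 19986 to 20057 tested. The log2 ratio within pairs then differed by 1.95 to 2.00 for NLP2 over NLP1 and by -0.08 to -0.04 for NLP5 over NLP4. For NLP7 over NLP6 the difference was -0.22 to -0.08, and for NLP9 over NLP8 it was -1.06 to -0.84. Same-numbered libraries of the 2 groups deviated together with correlations of 0.10, 0.05 and -0.01 over genes, and not every library correlated best with its own number, so the numbers were not taken to pair the samples. With a replicate block 8 NLP genes were higher, 3 partners were higher and 21 target genes were lower. Of the 20032 genes tested with the block, 34.6% were called higher and 7265 genes lower. In all 14194 were called, against 14390 without the block. At 66 to 113 reads per ammonium nitrate library, NLP3 and NLP9 had the fewest reads of the members and so the largest relative counting error. What part counting had in their spread between libraries was not tested.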
